A study of Mus musculus with 7 samples.

Results

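The genes described here are 34 regulators of cell death in mouse optic nerve: the BCL2 family, caspases with the proteins that activate them, receptors and adaptors of the extrinsic pathway, and p53 with its ligase Mdm2. They were chosen by gene symbol, and all 34 were found among the 22880 genes of the deposited expression table. The samples were optic nerves of mice at postnatal day (P) 14, and each sample held both nerves of 1 mouse. Controls (CT, n = 4) were homozygous for a floxed Fasn allele (Fasn lox/lox) and carried no Cre. Conditional mutants (cMU, n = 3) had the same floxed alleles together with olig2cre, so that fatty acid synthase, the enzyme that makes palmitic acid, was to be removed from cells that had expressed Olig2, mainly the oligodendrocyte (OL) lineage. Both groups were on a C57Bl/6 background, and the floxed allele had been made in another strain. No group carried Cre without the floxed alleles, and the tissue also holds cells that do not express Olig2, such as microglia and those of vessels and meninges. Which cells kept Fasn was not measured in these samples.

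The intrinsic pathway of apoptosis runs through the mitochondrial outer membrane. Anti-apoptotic BCL2 proteins hold BAX and BAK in check, BH3-only proteins release this hold, and the pores that follow let cytochrome c out to assemble the apoptosome with APAF1 and caspase 9. The extrinsic pathway starts at death receptors, whose adaptors bring caspase 8 together. OLs are made in excess in the developing optic nerve, and those that do not receive survival signals die by apoptosis. Many steps are controlled on the protein, by cleavage, phosphorylation or binding, which RNA levels do not show.

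Fasn itself was measured at 210, 169, 211 and 228 FPKM (fragments per kilobase of transcript, scaled to the reads of the sample) in the CT samples and at 69.3, 50.5 and 49.0 in the cMU samples. Every cMU sample was below every CT sample, and the cMU mean was 27.5% of the CT mean (adjusted p = 0.00312, limma-trend). The samples held 27453082 to 43456826 reads, as recovered from the deposited values. Among 13866 genes tested, 363 passed an adjusted p of 0.05, 175 of them higher and 188 lower in cMU. With the samples scaled as in the deposited normalized counts the split was 103 higher and 267 lower, and with the replicate number as a block, on FPKM, it was 890 higher and 269 lower. Every marker gene listed for the tissue's cell types was above 0 in at least 1 sample. The sums over 8 myelinating OL genes were 56632 to 64394 FPKM in CT and 41244 to 52820 in cMU, and those over 6 astrocyte genes were 2559 to 2999 and 3297 to 4072. The sums over 5 endothelial genes were 73.9 to 86.0 FPKM in CT and 94.3 to 106 in cMU, and those over 5 meningeal fibroblast genes were 426 to 792 and 699 to 1382. Of these lists 2 OL genes fell and 3 astrocyte genes rose past the adjusted threshold, and none of the endothelial, fibroblast or microglial genes passed it. The replicate block changed these calls: none of the OL genes passed, and 4 astrocyte, 4 fibroblast, 3 neutrophil, 2 endothelial, 1 microglial and 1 neuron gene rose and 2 progenitor genes fell. For 8 microglia and macrophage genes the sums were 233 to 287 FPKM in CT and 282 to 303 in cMU, and those of progenitor (1 gene fell without the block), neutrophil, lymphocyte, neuron and cycling cell genes overlapped between the groups. The first cMU sample (cMU 1) had the highest endothelial and fibroblast sums. In such bulk samples, a change in the number of cells of a type and a change in RNA per cell cannot be told apart.

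The members spanned a wide range of abundance, from a CT mean of 0.356 FPKM for Bik to 99.3 for Bcl2l1. In CT nerves 16 members had a mean of at least 10 FPKM, 15 lay between 1 and 10, and 3 lay below 1. The highest means were those of Bcl2l1, Mcl1 and Bnip3l, followed by Tnfrsf1a, Bax and Bcl2l2, while Bcl2 itself was at 4.62 ± 0.544 FPKM (SD, n = 4). Replicates of most members were close, with a median SD of 8.73% of the mean in CT and 7.68% in cMU. The widest spread was 45.7% for Bbc3 in CT and 21.5% for Tnfrsf1a in cMU.

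**Figure D1:**
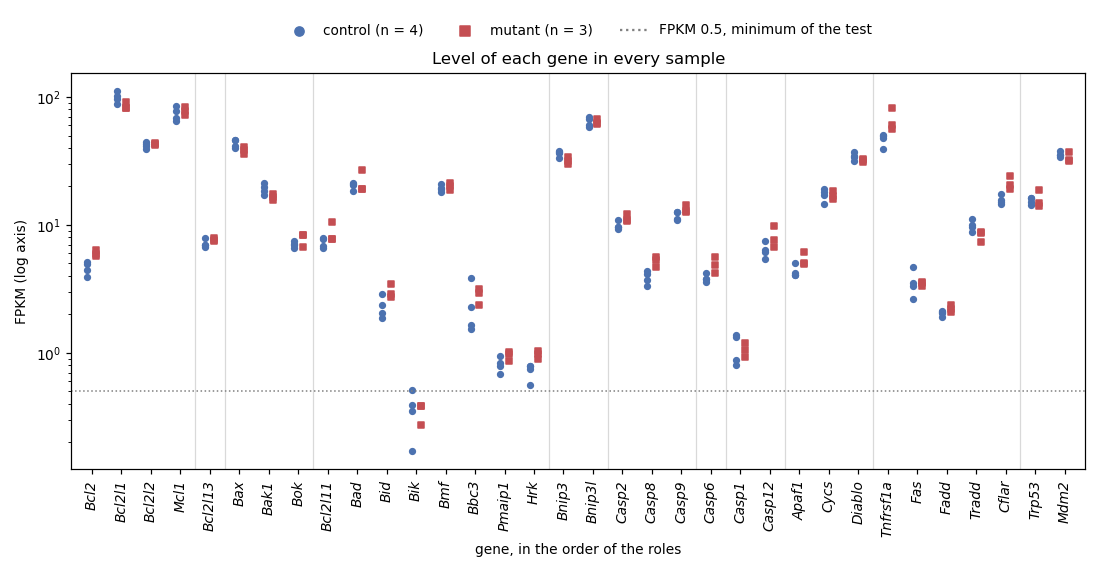
Level of each of the 34 members in every sample, as FPKM on a log axis, grouped by role (CT, blue, n = 4; cMU, red, n = 3; each point is 1 mouse), with a dotted line at the minimum of 0.5 FPKM used in the filter. Bcl2l1 and Mcl1 lie at the top and Bik at the bottom, and the CT and cMU ranges of most members overlap.

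Of the 34 members, 33 passed the filter on low values and were tested; Bik did not. None passed an adjusted p of 0.05 in limma-trend, where 2.62% of all genes tested did. In edgeR's quasi-likelihood test on reads recovered from the table none passed either (2.89% of all genes), and in DESeq2 3 passed, Cflar, Tnfrsf1a and Bcl2 (9.09%, beside 12.1% of all genes). At an unadjusted p under 0.05 there were 12 members (36.4%), 7 higher and 5 lower in cMU, beside 24.4% of all genes (15.9% higher, 8.5% lower). The CT and cMU values did not overlap for 7 members (21.2%), beside 21.1% of all genes: 6 were higher (18.2%, beside 12.9%) and 1 lower (3.03%, beside 8.26%). By estimate 22 members were higher and 11 lower, a share of 66.7% higher beside 60.1% of all genes. The members' log2 fold changes ran from -0.24 to 0.49, with a median of 0.09 beside 0.05 over all genes and a median size of 0.175 beside 0.137. With the replicate number as a block, 2 members passed the adjusted threshold, Cflar and Tnfrsf1a (6.06%, beside 8.36% of all genes). In that fit CT 4 has no partner and adds nothing to the difference. The highest of the 7 values was that of cMU 1 for 14 of 33 members (42.4%), beside 32.7% of all genes.

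**Figure D2:**
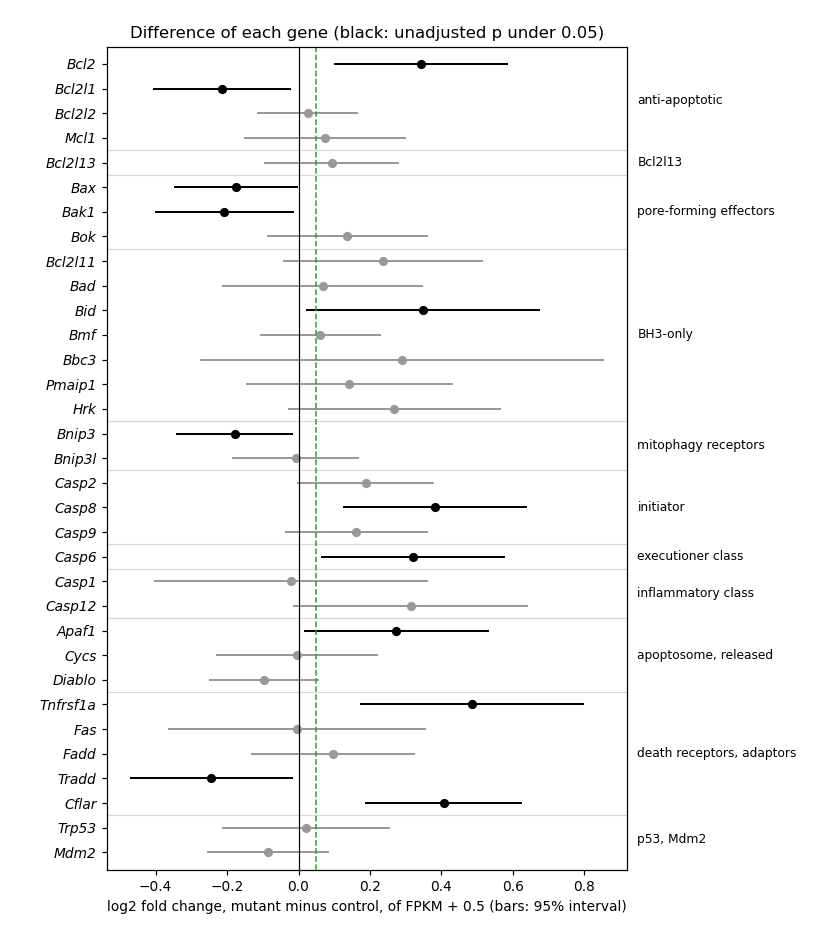
Log2 fold change (cMU against CT, on the log2(FPKM + 0.5) scale) of the 33 members tested, with 95% confidence intervals from limma-trend (n = 4 and 3), and the green dashed line at the median of all genes tested. The points lie between -0.24 and 0.49, with Tnfrsf1a and Cflar at the high end and Tradd at the low end.

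The members with the smallest p were Cflar, Tnfrsf1a, Casp8 and Bcl2. Their proximal promoters are shown here, as the 250 bases before the start site in RefSeq (GRCm38.p6), so that the members with the strongest evidence of a difference can be compared. Bax is added as a textbook target of p53 that was lower by estimate. Capitals mark a match to any of 6 short motifs, searched on both strands: the GC box (GGGCGG), the CCAAT box (CCAAT), the TATA box (TATAAA), the AP-1 site (TGANTCA), the NF-kB site and the p53 site, the last being a single decamer. The windows were Cflar chr1:58711241-58711490 (+), Casp8 chr1:58802252-58802501 (+), Tnfrsf1a chr6:125349473-125349722 (+), Bcl2 chr1:106714291-106714540 (-) and Bax chr7:45466899-45467148 (-).
Cflar: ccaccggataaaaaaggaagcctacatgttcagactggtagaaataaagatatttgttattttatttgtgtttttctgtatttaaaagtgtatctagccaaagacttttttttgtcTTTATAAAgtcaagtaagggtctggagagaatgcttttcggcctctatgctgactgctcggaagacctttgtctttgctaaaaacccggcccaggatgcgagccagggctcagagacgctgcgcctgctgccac
Casp8: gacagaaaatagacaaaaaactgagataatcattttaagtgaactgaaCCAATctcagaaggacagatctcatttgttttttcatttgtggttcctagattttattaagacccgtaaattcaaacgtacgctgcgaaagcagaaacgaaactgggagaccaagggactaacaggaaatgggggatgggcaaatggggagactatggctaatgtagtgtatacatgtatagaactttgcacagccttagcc
Tnfrsf1a: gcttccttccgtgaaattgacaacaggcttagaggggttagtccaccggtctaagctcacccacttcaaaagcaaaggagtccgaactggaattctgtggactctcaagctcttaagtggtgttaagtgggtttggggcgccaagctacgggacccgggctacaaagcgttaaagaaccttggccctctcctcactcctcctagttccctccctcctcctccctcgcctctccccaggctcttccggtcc
Bcl2: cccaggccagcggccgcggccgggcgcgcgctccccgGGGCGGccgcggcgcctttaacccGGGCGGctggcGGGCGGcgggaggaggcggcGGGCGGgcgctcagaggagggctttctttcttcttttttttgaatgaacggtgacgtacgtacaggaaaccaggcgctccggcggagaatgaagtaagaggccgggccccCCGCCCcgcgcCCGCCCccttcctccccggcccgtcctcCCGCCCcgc
Bax: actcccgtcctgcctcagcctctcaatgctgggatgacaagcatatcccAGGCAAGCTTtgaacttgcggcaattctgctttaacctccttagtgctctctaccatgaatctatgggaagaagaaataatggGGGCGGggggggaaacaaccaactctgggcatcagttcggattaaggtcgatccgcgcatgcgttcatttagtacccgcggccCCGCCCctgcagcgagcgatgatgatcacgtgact

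The Cflar window held TATAAA on both strands at 1 place, in matches that overlap, and 42.8% of its bases were G or C. The windows of Casp8 and Tnfrsf1a lie inside the span that the expression table gives the gene, and that of Casp8 held 1 CCAAT box. The Tnfrsf1a window held none of the 6 motifs, and the Bcl2 window, 74.8% G or C, held 7 GC boxes. A window was found for 30 members, and not for Bik, Bnip3l, Pmaip1 and Tradd. For the counts that follow, the windows also reached past the start site, unlike those printed, and a match in any window of a gene counted. Of the 30 members, 22 had a GC box (38.2% of all 27025 genes with windows), 12 a CCAAT box (41.1%), 4 a p53 decamer (9.55%), 4 an NF-kB site (5.14%), 2 a TATA box (15.7%) and 1 an AP-1 site (8.97%). The p53 decamer was in Bax, Bmf, Mdm2 and Trp53, and the NF-kB site in Bbc3, Bcl2l1, Bmf and Trp53. Of the latter, Bbc3, Bcl2l1 and Bmf had 3 windows each in which to match, beside 32851 windows for the 27025 genes.

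In the extrinsic pathway, the TNF receptor and the inhibitor of caspase 8 were the members with the largest differences. Tnfrsf1a (ENSMUSG00000030341, GRCm38 chr6:125349451-125362484), which encodes the TNF receptor TNFR1, was at 47.8, 39.5, 49.5 and 50.6 FPKM in CT and at 82.8, 56.5 and 60.0 in cMU. All cMU values were above all CT values, and cMU 1 was far above the other cMU samples. The log2 fold change was 0.49 (SE 0.137, 95% interval 0.17 to 0.80), with an adjusted p of 0.0892 in limma-trend and of 0.0329 with the replicate block. Without cMU 1 it was 0.32, with an adjusted p of 0.164. Cflar (ENSMUSG00000026031, chr1:58711551-58758884) encodes c-FLIP, a relative of caspase 8 that lacks protease activity and limits its activation. It was at 17.6, 15.2, 14.6 and 15.8 FPKM in CT and at 24.0, 20.45 and 19.0 in cMU, again without overlap. Its log2 fold change was 0.41 (SE 0.0956, 95% interval 0.19 to 0.62), with an adjusted p of 0.0610 in limma-trend and of 0.0300 with the block.

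The fibroblast and endothelial sums were also highest in cMU 1, and so were the levels of Casp8, Bcl2, Casp6, Apaf1 and Bid. The part of those cells in these differences, and in those of Tnfrsf1a and Cflar, was not tested. With any 1 sample left out, the log2 fold change was 0.31 to 0.48 for Cflar and 0.32 to 0.45 for Casp8. It was 0.28 to 0.39 for Bcl2, 0.23 to 0.41 for Casp6, 0.19 to 0.34 for Apaf1 and 0.26 to 0.44 for Bid. Casp8 (ENSMUSG00000026029, chr1:58795374-58847503), the initiator caspase that death receptors recruit, lies 36489 bases beyond Cflar with no gene of the table in between. Its levels were 4.37, 3.33, 3.73 and 4.11 FPKM in CT and 5.58, 5.34 and 4.69 in cMU. Here too the groups did not overlap, and the log2 fold change was 0.38 (SE 0.113, 95% interval 0.13 to 0.64, adjusted p = 0.0962, limma-trend). Tradd, which links TNFR1 to its signalling complex, was at 9.68, 9.99, 8.81 and 11.1 FPKM in CT and at 8.67, 7.39 and 8.75 in cMU. All 3 cMU values were below the lowest CT value, and the log2 fold change was -0.24 (SE 0.0993, 95% interval -0.47 to -0.02, adjusted p = 0.175, limma-trend). Fadd, the adaptor between Fas and caspase 8, had 1.90 to 2.13 FPKM in CT and 2.09 to 2.34 in cMU. Fas, the receptor of Fas ligand, had 2.63 to 4.69 FPKM in CT and 3.32 to 3.56 in cMU, with an interval of -0.36 to 0.35 around a log2 fold change of -0.0046. Summed over the 5 receptors and adaptors, FPKM were 70.1 to 82.2 in CT and 90.1 to 121 in cMU, most of it Tnfrsf1a.

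**Figure D3:**
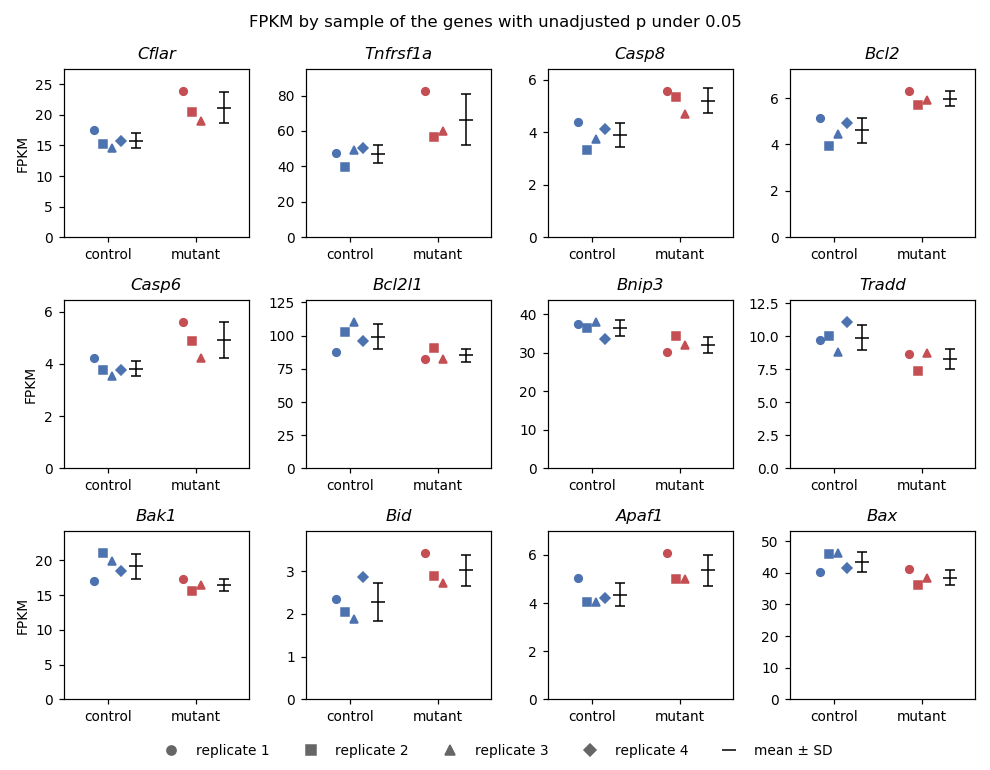
FPKM of the 12 members with an unadjusted p under 0.05, in each CT (blue, control, n = 4) and cMU (red, mutant, n = 3) sample, with the mean ± SD as bars and the replicate number as the symbol. The cMU points of Cflar, Tnfrsf1a, Casp8, Bcl2 and, barely, Casp6 lie above all CT points, and those of Tradd below. For every member shown that was higher in cMU, cMU 1 is the highest sample.

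Among the anti-apoptotic BCL2 proteins, the founding member and its most abundant relative had differences of opposite sign. Bcl2 (ENSMUSG00000057329, chr1:106538178-106714274) was at 5.14, 3.92, 4.47 and 4.94 FPKM in CT and at 6.32, 5.69 and 5.90 in cMU. The groups did not overlap, and the log2 fold change was 0.34 (SE 0.106, 95% interval 0.10 to 0.58, adjusted p = 0.105, limma-trend). Bcl2l1, which encodes BCL-XL, was at 88.1, 103, 111 and 95.7 FPKM in CT and at 82.2, 91.1 and 82.7 in cMU. The second cMU value lay above the lowest CT value, and the log2 fold change was -0.21 (SE 0.0840, 95% interval -0.40 to -0.02, adjusted p = 0.163, limma-trend). Mcl1, a short-lived anti-apoptotic protein, had 64.8 to 85.1 FPKM in CT and 72.3 to 83.3 in cMU. Bcl2l2, which encodes BCL-W, had 39.5 to 44.8 FPKM in CT and 42.2 to 43.8 in cMU, and it shares 4794 bases on the same strand with Gm20521, so that their reads may be divided between them. The 4 genes together summed to 207 to 237 FPKM in CT and 203 to 223 in cMU. Bcl2l13, a BCL2 relative that acts as a mitophagy receptor, had 6.76 to 7.94 FPKM in CT and 7.53 to 7.85 in cMU.

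The effectors that form pores were lower by estimate, except Bok. Bax was at 40.2, 46.0, 46.4 and 41.5 FPKM in CT and at 41.0, 36.2 and 38.2 in cMU. Bak1 was at 17.1, 21.1, 19.9 and 18.4 FPKM in CT and at 17.3, 15.6 and 16.5 in cMU. For both genes only cMU 1 lay within the CT range, and the log2 fold changes were -0.17 (SE 0.0751) for Bax and -0.21 (SE 0.0849) for Bak1, with adjusted p of 0.195 and 0.177 in limma-trend. Bak1 overlaps Ggnbp1 on the other strand over 9200 bases. Bok, a more distant relative of both, had 6.55 to 7.45 FPKM in CT and 6.71 to 8.39 in cMU.

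The BH3-only genes have products that sense stress and set BAX and BAK free. None of the 7 tested passed. All 7 were higher by estimate on FPKM, where 60.1% of all genes were, though Bmf was lower after quantile normalization and Bad and Bmf were lower on the normalized counts, and the 95% intervals included 0 for all but Bid. Bid, which caspase 8 cleaves to link the extrinsic to the intrinsic pathway, was at 2.35, 2.04, 1.87 and 2.87 FPKM in CT and at 3.43, 2.89 and 2.73 in cMU. The groups overlapped by the fourth CT and the third cMU sample, and the log2 fold change was 0.35 (SE 0.143, 95% interval 0.02 to 0.67, adjusted p = 0.180, limma-trend). Bid shares 913 bases with Bcl2l13 on the other strand. Bcl2l11, which encodes BIM, was at 7.74, 6.63, 6.87 and 7.91 FPKM in CT and at 10.6, 7.81 and 7.82 in cMU. Its log2 fold change of 0.24 (95% interval -0.04 to 0.51) rested on cMU 1, without which it was 0.10. Bad, whose product is silenced by survival kinases, was likewise high in cMU 1 alone, at 26.9 FPKM beside 19.0 and 19.1 in the other cMU samples and 18.5 to 21.3 in CT. Without that sample the log2 fold change of Bad was -0.10. Bad overlaps Gpr137 on the other strand over 590 bases.

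Bbc3 (PUMA) and Pmaip1 (NOXA), BH3-only genes that p53 is known to induce, were low in abundance. Bbc3 was at 1.65, 1.53, 2.28 and 3.83 FPKM in CT and at 2.92, 3.16 and 2.34 in cMU. The fourth CT sample had the highest value of all 7, and the 95% interval of the log2 fold change ran from -0.27 to 0.85, the widest among the members. Pmaip1 had 0.683 to 0.951 FPKM in CT and 0.863 to 1.01 in cMU. Hrk, a BH3-only gene best known from neurons, had 0.558 to 0.795 FPKM in CT and 0.891 to 1.04 in cMU, without overlap, at a log2 fold change of 0.27 (adjusted p = 0.243, limma-trend). Bmf, whose product is tethered to the cytoskeleton, had 18.1 to 20.8 FPKM in CT and 18.9 to 21.4 in cMU. Bik was at 0.169 to 0.514 FPKM in CT and 0.273 to 0.386 in cMU, on 5 to 21 reads per sample, too few for a test.

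Of the mitophagy receptors related to BH3-only proteins, Bnip3, which hypoxia induces, was at 37.4, 36.5, 38.0 and 33.4 FPKM in CT and at 30.0, 34.2 and 31.9 in cMU. Here cMU 2 lay above the lowest CT value, and the log2 fold change was -0.18 (SE 0.0706, 95% interval -0.34 to -0.02, adjusted p = 0.165, limma-trend). Its relative Bnip3l (NIX), with 58.3 to 70.1 FPKM in CT and 61.4 to 66.9 in cMU, had a log2 fold change of -0.01 (95% interval -0.18 to 0.17).

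None of the other caspases passed the test, and only for Casp6 did the 95% interval exclude 0. Casp6, of the executioner class, was at 4.23, 3.75, 3.55 and 3.75 FPKM in CT and at 5.62, 4.88 and 4.24 in cMU. The lowest cMU value lay just above the highest CT value, and the log2 fold change was 0.32 (SE 0.113, 95% interval 0.07 to 0.57, adjusted p = 0.135, limma-trend). Casp2, an initiator that responds to stress in the nucleus, had 9.34 to 10.8 FPKM in CT and 10.7 to 12.3 in cMU, at a log2 fold change of 0.19 (adjusted p = 0.206, limma-trend). Casp9, the caspase of the apoptosome, had 10.9 to 12.7 FPKM in CT and 12.6 to 14.4 in cMU, at a log2 fold change of 0.16 (adjusted p = 0.287, limma-trend), and it overlaps Cela2a and Ctrc on the other strand. The 3 initiators summed to 24.0 to 27.9 FPKM in CT and 28.1 to 32.3 in cMU. Casp12, associated with the endoplasmic reticulum, was at 7.497, 5.40, 6.31 and 6.15 FPKM in CT and at 9.84, 6.68 and 7.64 in cMU. Its log2 fold change of 0.31 (95% interval -0.01 to 0.64, adjusted p = 0.219, limma-trend) was 0.17 without cMU 1. Casp1, which cleaves the precursors of interleukins in the inflammasome, had 0.799 to 1.38 FPKM in CT and 0.924 to 1.19 in cMU.

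Apaf1, the scaffold of the apoptosome, was at 5.06, 4.05, 4.05 and 4.22 FPKM in CT and at 6.10, 4.99 and 4.98 in cMU. The first CT sample stood apart from the other CT samples and lay above 2 cMU samples, and the log2 fold change was 0.27 (SE 0.113, 95% interval 0.02 to 0.53, adjusted p = 0.181, limma-trend). Cycs, which encodes cytochrome c and has near-identical pseudogenes that can share its reads, had 14.6 to 19.0 FPKM in CT and 16.0 to 18.5 in cMU. Diablo, a mitochondrial protein that blocks inhibitors of apoptosis once released, had 31.6 to 37.2 FPKM in CT and 31.2 to 32.5 in cMU, and it overlaps B3gnt4 on the other strand.

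Trp53, which encodes p53, and Mdm2, the ligase that marks it for degradation and is itself a p53 target, did not pass the test in either direction. Trp53 was at 14.4, 16.3, 15.2 and 16.2 FPKM in CT and at 18.7, 14.02 and 14.8 in cMU. The highest value was in cMU 1 and the lowest in cMU 2, and the 95% interval of the log2 fold change was -0.21 to 0.25. Mdm2 had 33.97 to 37.9 FPKM in CT and 31.3 to 37.1 in cMU, with an interval of -0.25 to 0.08. Trp53 was higher by 0.02 on FPKM and lower by estimate under the other scalings and the count tests, in each case within that interval. The stability and activity of the p53 protein were not measured.

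The share of members that were higher moved with how samples were scaled. At an unadjusted p under 0.05 there were 7 higher and 5 lower in the fit above, 5 and 5 when samples were scaled by median of ratios (24.8% of all genes in both directions) or as in the normalized counts (25.4%), and 4 and 5 after quantile normalization (24.5%). With the replicate block there were 11 higher and 2 lower, beside 19.4% and 7.71% of all genes and 27.1% in both directions. The median of all genes was 0.05 on FPKM and -0.03 on the normalized counts, and none of the 12 members changed its sign under any alternative, with or without the median subtracted. The count was 5 without the second CT sample, 5 without the third and 7 without cMU 1, beside 18.5%, 19.2% and 18.2% of all genes, and 5 of 33 is 15.2%.

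**Figure D4:**
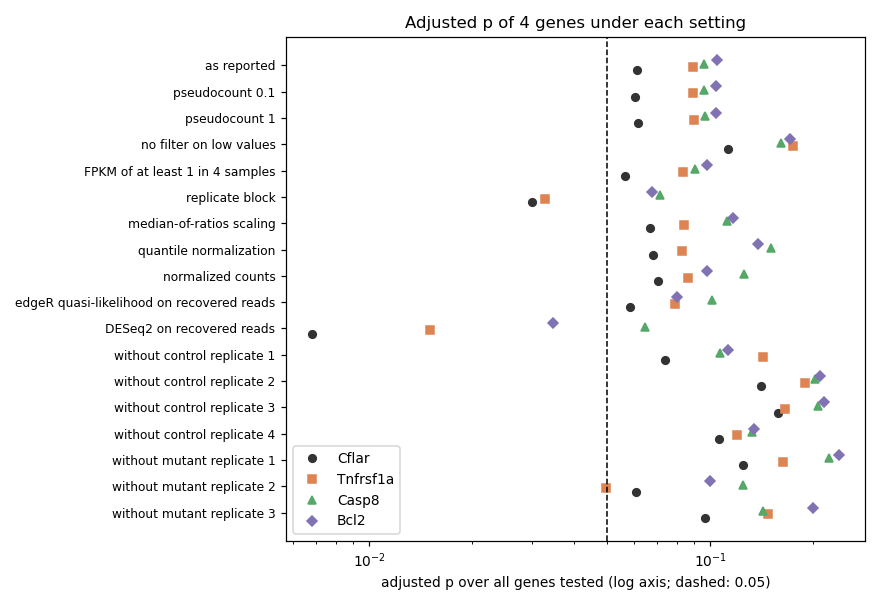
Adjusted p, on a log axis, of Cflar, Tnfrsf1a, Casp8 and Bcl2 as reported, under each alternative processing and with each sample left out, with the dashed line at 0.05. Cflar and Tnfrsf1a lie below the line with the replicate block and in DESeq2, Bcl2 in DESeq2, and Tnfrsf1a without the second mutant at 0.0494, while Casp8 lies above it in all.

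Among 70 other genes of the same pathways, of which 57 were tested, 1 rose and 1 fell, and 17 were higher and 5 lower at an unadjusted p under 0.05, with a median log2 fold change of 0.10. Of all genes 2.62% passed, and 15.9% were higher and 8.5% lower at that unadjusted p, which is the background for each list below. The gene that fell was Birc2, which encodes the inhibitor of apoptosis cIAP1, a ligase in the TNFR1 complex. It was at 39.9, 41.7, 43.3 and 37.6 FPKM in CT and at 24.2, 23.2 and 24.2 in cMU, a log2 fold change of -0.75 (SE 0.0650, adjusted p = 0.00312, limma-trend). The groups lay far apart, and of the 5 inhibitors of apoptosis no other passed. The gene that rose was Il18, the interleukin that caspase 1 matures. It was at 17.1, 15.5, 17.9 and 20.7 FPKM in CT and at 26.5, 27.9 and 29.4 in cMU, a log2 fold change of 0.64 (SE 0.0967, adjusted p = 0.0214, limma-trend). Every cMU value was above every CT value, but the adjusted p was 0.0563 without the filter on low values, and it was 0.0570, 0.0566, 0.0909 and 0.0838 when CT 1, CT 2, CT 3 or cMU 3 was left out. All 7 inflammasome genes tested, of 10 listed, were higher by estimate on FPKM, where 60.1% of all genes were. By median of ratios or on the normalized counts 6 were higher, and 5 after quantile normalization. On FPKM 5 had an unadjusted p under 0.05. The median log2 fold change of the 7 was 0.40, but Nlrp3 and Aim2 were at 0.04, below the median of 0.05 over all genes. Casp1, a member and so not on this list, was at -0.02. The 8 microglia and macrophage genes summed to 282 to 303 FPKM in cMU beside 233 to 287 in CT, and their part in the inflammasome differences was not tested.

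Casp4, which was also counted among the inflammasome genes, had the smallest p of 3 other caspases, at a log2 fold change of 0.41 (SE 0.125, adjusted p = 0.100, limma-trend). Casp14 was at 0 in every sample. Among 15 other death receptors, ligands and adaptors, 11 were tested and none passed, with 4 higher and 1 lower at an unadjusted p under 0.05. The smallest p was that of Tnfrsf1b, the other TNF receptor, at a log2 fold change of 0.31 (SE 0.0822, adjusted p = 0.0775, limma-trend).

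Of 22 regulators and targets of p53, 21 were tested and none passed, with 6 higher and 1 lower at an unadjusted p under 0.05 and a median log2 fold change of 0.10. The smallest p was that of Sesn1, a stress-induced p53 target, at a log2 fold change of 0.48 (SE 0.109, adjusted p = 0.0566, limma-trend). With the replicate block 1 gene of this list passed, Perp (adjusted p = 0.0433, limma-trend). Perp was at 41.1 FPKM in cMU 1 beside 16.8 and 23.1 in the other cMU samples and 8.91 to 19.8 in CT, and it is named here after its values were seen. None of 6 other mitochondrial death genes had an unadjusted p under 0.05, the smallest being that of Aifm1. Of the 10 other BCL2 family genes 6 were tested, and the smallest p was that of Bcl2a1b, whose near-identical copies make its level uncertain.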

How the data were processed

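RNA from both optic nerves of each P14 mouse was sequenced as stranded mRNA libraries, single end, in 4 controls and 3 mutants, grouped by the sample labels. The authors aligned reads with STAR 2.5.1b to GRCm38 with Ensembl genes and estimated counts with RSEM 1.2.22, per the submitters' notes and the study's methods. The deposited table gives a normalized count and an FPKM value per gene and sample. The normalized count is a signal the authors obtained from the estimated count and a size factor of the sample. The FPKM values, as deposited, were derived by the authors from the normalized count by gene length and a scaling that differed between samples. FPKM times gene length over normalized count was 27.46 to 28.82 in CT, and 31.06, 28.23 and 30.10 in cMU 1, 2 and 3. The deposited columns of log2 ratio, p-value and FDR between the groups were not used. Whether counting used the strand is not given in the sources used here, so overlapping genes are named.

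Here limma-trend (limma 3.58.1, R 4.3.3) was fitted to log2(FPKM + 0.5) of the genes with at least 0.5 FPKM in at least 3 samples, with a single term for genotype, and p-values were adjusted by Benjamini-Hochberg over 13866 genes at a threshold of 0.05. A fold change on this scale understates that of low genes. For depth and for the tests in edgeR 4.0.16 and DESeq2 1.42.0, estimated counts were recovered from the smallest step between normalized counts in each sample and rounded, and 75.8% to 80.6% of values of 0.5 to 10 were whole within 0.05. The scripts were tested on simulated data. Controls and mutants share replicate numbers 1 to 3 in the labels. Samples of the same number deviated together in all 3 pairs, with correlations of 0.168, 0.409 and 0.270, beside -0.353 to 0.205 for other pairs. The first lay below the 0.205 of CT 4 with cMU 1, so that pair does not stand out. The blocked value is given where it changes a call. An exact two-sided permutation test of 4 against 3 samples cannot go below p = 0.0571. Other pseudocounts, filters, scalings and left-out samples were tried as alternatives. Named genes are all members, the other pathway genes that passed, and the gene with the smallest p in each pathway list, without 1 listed gene that is not reported here. The members and lists were chosen with earlier results of these data known.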

Additional observations from a re-analysis of the deposited data

Results flagged for a closer look

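In the 4 controls, 3 of 43 genes had a sample set apart from the other 3 by Dixon's test, which chance gives in about 1 of 20 groups. Apaf1 was at 5.06 FPKM in the first control and at 4.05 to 4.22 in the others. Bcl2a1b was at 2.22 FPKM in the fourth control and at 1.40 to 1.49 in the others, and Casp4 at 0.765 FPKM there and at 0.598 to 0.618 in the others.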

How the results depend on the processing

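The number of all genes past the adjusted threshold was 363, and it was 95 without a filter on low values, 1159 with the replicate block, 1683 in DESeq2 and 6 to 909 with a sample left out (6 without the third control or the third mutant, 909 without the second mutant). Of the members, 2 passed with the replicate block, where the pairing came from the labels' numbers and the check of correlations, 3 in DESeq2, and 0 to 1 with a sample left out, the 1 being Tnfrsf1a without the second mutant. Members at an unadjusted p under 0.05 numbered 5 to 11 of 33 with a sample left out (15.2% to 33.3%), beside 18.2% to 28.1% of all genes. The members' median log2 fold change of 0.09 was 0.0079 after quantile normalization and 0.0208 on the normalized counts. The block changed no other call of a named gene except Perp. Of 559 values of single members, 520 kept their direction and side of the threshold, 6 passed it and 33 changed sign, in 10 members that had not passed the test; 23 members kept their sign under all 17 alternatives that gave them a value.

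The log2 fold changes that changed sign were those of Casp1 (0.0491 with the replicate block), Bcl2l2 (-0.0274 by median of ratios, -0.0063 by quantiles, -0.0523 on normalized counts, -0.0247 in edgeR, -0.0217 in DESeq2), Trp53 (-0.0313, -0.0393, -0.0568, -0.0207 and -0.0173 in the same order), Bmf (-0.0024 by quantiles, -0.0152 on normalized counts), Fadd (-0.0304 by quantiles), and Mcl1 and Bad (-0.0042 and -0.0097 on normalized counts). With a sample left out, values ran from -0.0053 to 0.0544 for Bcl2l2, -0.0952 to 0.149 for Bad, -0.0515 to 0.0365 for Bnip3l, -0.114 to 0.0634 for Casp1, -0.0795 to 0.0442 for Cycs, -0.119 to 0.124 for Fas and -0.100 to 0.100 for Trp53. The cause was not tested. With 4 and 3 samples, 95% intervals reached 0.85 on the log2 scale for the least precise member, Bbc3, and lay within 0.5 of 0 for 22 of 33.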

Other observations

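Ratios between members within a sample do not depend on a scaling factor of the sample, though quantile normalization can change them, and they are given here from FPKM as a description, chosen with the levels known and without a test. Bax over Bcl2, a pore-forming effector over its inhibitor, was 7.81, 11.8, 10.4 and 8.41 in the controls and 6.49, 6.36 and 6.48 in the mutants, without overlap. Against the more abundant inhibitor Bcl2l1 the ratio of Bax was 0.439 ± 0.0162 (SD, n = 4) in controls and 0.453 ± 0.0516 (n = 3) in mutants, with overlap. Summed over Bax and Bak1 and over the 4 anti-apoptotic genes it was 0.284 ± 0.0129 in controls and 0.260 ± 0.0242 in mutants, also with overlap.

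The ratio of Cflar to its chromosomal neighbour Casp8 was 4.09 ± 0.333 in controls and 4.06 ± 0.231 in mutants. Tnfrsf1a over its adaptor Tradd was 4.94, 3.95, 5.62 and 4.56 in the controls and 9.55, 7.64 and 6.86 in the mutants. These ratios could not overlap, as Tnfrsf1a was higher and Tradd lower in every mutant than in every control. Bnip3l over Bnip3 was 1.59 to 1.88 in the controls and 1.96 to 2.04 in the mutants, without overlap. How often the ratios of other pairs of genes do not overlap was not counted. Mdm2 over Trp53 was 2.30 ± 0.149 in controls and 2.17 ± 0.484 in mutants, with the lowest value, 1.68, in the first mutant.

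Casp1 and Casp12 lie 38164 bases apart on chromosome 9 with Casp4, another caspase of the inflammatory class, in between. Casp4 was at 0.598, 0.618, 0.618 and 0.765 FPKM in the controls and at 1.05, 0.926 and 1.12 in the mutants. Its groups did not overlap (log2 fold change 0.41, SE 0.125, adjusted p = 0.100, limma-trend), while those of Casp1 and Casp12 did.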
